A study of Mus musculus with 7 samples.

Results

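MiR-132 and miR-212 (mmu-miR-132 and mmu-miR-212 in the mouse nomenclature) are 2 of the 696 mouse miRNAs on the array used here. They were chosen by name because they are a clustered pair with a shared seed. A further reason was that miR-132 changed on these arrays but is absent from the paper's list of differentially expressed miRNAs. MiR-212 is absent from that list too. The choice was thus made with results of these arrays known. The array lists miR-132 under its plain name and miR-212 with the arm suffix 3p, so 1 name was met exactly and 1 with the suffix. Total RNA of kidneys from male C57BL/6 mice, 9 to 12 weeks old, carrying the dye Cy3 was put on 1-colour miRNA arrays from Agilent, on which several short probes stand for each miRNA. Under pentobarbital at 50 mg/kg the left ureter was ligated (unilateral ureteral obstruction, UUO) or only exposed (sham), and kidneys were taken at day 28. No transgene, deletion or drug other than the anaesthetic is named for any group. The 7 arrays analysed here carry the group labels non-treated (replicates 1, 2, 3 and 4) and treated (replicates 1, 3 and 4), and they are called non-treated and treated arrays after these deposited labels alone.

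Both operations are described in the deposited record, with no word on which label belongs to which. Each direction is therefore given as labelled treated minus labelled non-treated, which is opposite to the direction the study gives for obstructed against sham kidneys, and the identity of the labels as UUO or sham is not settled. The paper counts 4 mice in each group, and nothing ties an array to an animal beyond its label, so a p-value here measures the spread between these arrays. The labels name an extraction kit for preserved tissue, whereas the methods of the paper name another kit for mouse tissue.

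The 2 miRNAs are processed from neighbouring hairpins of 1 primary transcript. Transcription of this unit is known to be induced by CREB, the cAMP response element binding protein, and to be restrained in non-neuronal cells by the repressor REST. The pair is best known from neurons, where activity induces it, and is also expressed in endothelium, smooth muscle and immune cells. A miRNA recognises a target mainly through its seed, bases 2 to 8 from its 5′ end, so miRNAs with the same seed share most predicted targets.

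The mature 3p strands, which the array probes measure, are shown because the seed in capitals is the feature that joins the pair. They are RefSeq sequences with coordinates on GRCm38.p6, plus strand, at chr11:75173723-75173744 for miR-132 and at chr11:75173443-75173464 for miR-212.
mmu-miR-132-3p: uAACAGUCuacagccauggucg
mmu-miR-212-3p: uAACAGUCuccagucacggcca
The strands are identical at 17 of 22 positions, including the first 9. Counted from the 5′ end with the base of miR-132 first, they differ by A10C, C14U, U17C, U20C and G22A. The matching site in a target reads GACUGUU, and 2 of the 1738 mature mouse miRNAs in the RefSeq table carry this seed, which are miR-132 and miR-212 themselves.

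The hairpins are printed with the measured 3p strand in capitals, because they show that both strands come from the same arm of adjacent hairpins. Mir212 lies at chr11:75173388-75173478 and Mir132 at chr11:75173682-75173747, both on the plus strand.
Mir212: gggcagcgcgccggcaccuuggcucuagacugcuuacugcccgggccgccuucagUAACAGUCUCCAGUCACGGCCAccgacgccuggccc
Mir132: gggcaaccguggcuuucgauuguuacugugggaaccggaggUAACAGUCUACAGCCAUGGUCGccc
Between them lie 203 bases. No other annotated gene overlaps the hairpins, and the protein-coding neighbours are Hic1 and Ovca2. The 5p strand of neither hairpin has a probe on the array, and the sequences of the probes themselves were not used here.

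Each of the 2 miRNAs was measured by 2 probes with 10 spots each. Signals are background-subtracted intensities in the scanner's linear units, averaged over the spots of a probe without outlier flags then added up over the probes of each miRNA. Before scaling between arrays, miR-132 had signals of 52.9, 51.2, 44.2 and 56.1 on the non-treated arrays, replicates 1 to 4. On the treated arrays, replicates 1, 3 and 4, its signals were 4.51, 5.36 and 3.49. Every non-treated array lay far above every treated array, and the ranges did not overlap. Agilent's software called miR-132 detected on 4 of 4 non-treated arrays and on 2 of 3 treated arrays, the exception being replicate 4.

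MiR-212 had unscaled signals of 17.3, 18.4, 13.4 and 18.1 on the non-treated arrays. Its signals were 16.2, 19.4 and 12.9 on the treated arrays. Here the ranges overlapped, with the highest and the lowest value of all both on treated arrays. MiR-212 was called detected on all 7 arrays. On the unscaled log2 scale its means were 4.06 ± 0.216 (SD, n = 4) and 3.99 ± 0.296 (SD, n = 3), a difference of -0.067. For miR-132 the unscaled log2 means were 5.67 ± 0.147 (SD, n = 4) and 2.13 ± 0.312 (SD, n = 3), a difference of -3.54.

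The arrays differed in overall brightness with their labels. Averaged over the 186 miRNAs detected on all arrays, the log2 signal was 7.24 ± 0.398 (SD, n = 4) on the non-treated arrays and 6.09 ± 0.320 (SD, n = 3) on the treated arrays, and the numbers of miRNAs detected were 232 to 282 and 193 to 214. The mean log2 signal of 8 spike-in control probes was 10.53 ± 0.228 (SD, n = 4) and 10.32 ± 0.278 (SD, n = 3). The study's methods use an array mean for normalization, with no word on which miRNAs enter it. Signals were scaled here by the mean log2 signal of those 186 miRNAs, and the mean over all miRNAs, which gave smaller values for miR-212, is among the scalings compared. Scaled signals under 5.85, a log2 value of 2.55, were raised to that floor, which is the highest over the arrays of the lowest scaled signal of a detected miRNA. No value of miR-132 or miR-212 lay at the floor. No spot of any array was saturated.

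After scaling, the log2 signal of miR-132 was 5.08, 4.90, 5.56 and 5.15 on the non-treated arrays. On the treated arrays it was 2.87, 2.75 and 2.76, close above the floor. The means were 5.17 ± 0.279 (SD, n = 4) and 2.79 ± 0.0701 (SD, n = 3). Taken as measured, the difference was -2.38 (standard error 0.15). By the rule on spots given below, neither probe of miR-132 was above background on the treated arrays, so the size of this difference is only bounded. Since kidney RNA was measured in bulk, fewer cells that hold miR-132 and less miR-132 per cell cannot be told apart.

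The scaled log2 signal of miR-212 was 3.46, 3.43, 3.84 and 3.52 on the non-treated arrays. It was 4.72, 4.60 and 4.64 on the treated arrays, all above the other group. The means were 3.56 ± 0.186 (SD, n = 4) and 4.65 ± 0.0610 (SD, n = 3), a difference of 1.09 (standard error 0.11), or a 2.13-fold higher signal on the treated arrays, a direction that turns to -0.067 without scaling. Non-treated replicate 3 gave the highest scaled and the lowest unscaled signal of its group for both miRNAs.

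**Figure D1:**
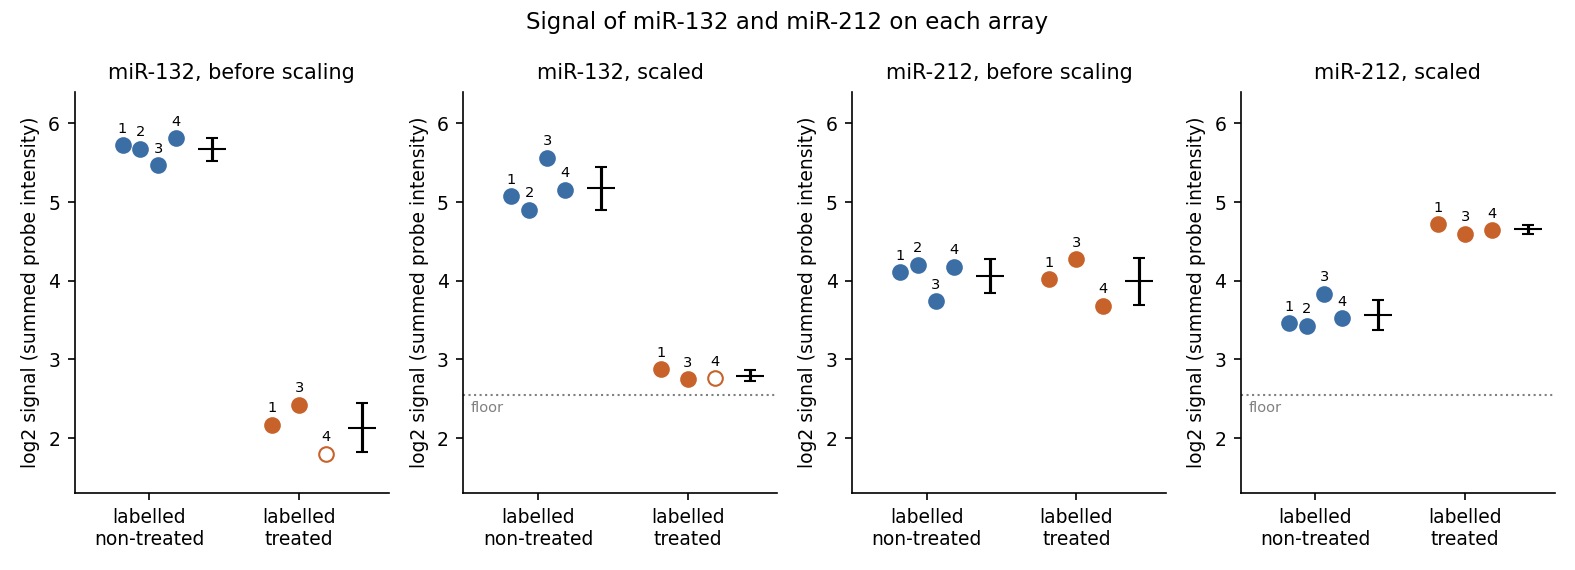
Signals of miR-132 and miR-212 on each of the 7 arrays, with the group label on the x axis and the log2 signal on the y axis, before and after scaling between arrays. Points are arrays with their replicate numbers (open where the miRNA was not called detected), bars are the mean and SD of a label group (n = 4 non-treated, n = 3 treated), the dotted line is the floor, and miR-132 separates the labels on both scales, whereas miR-212 overlaps before scaling and separates after it.

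limma tested 236 miRNAs that were detected on every array of at least 1 label group. At a Benjamini-Hochberg adjusted p below 0.01 it called 130 of them, 55.1%. Of the miRNAs tested, 75, or 31.8%, were called lower on the treated arrays, and 55, or 23.3%, higher. Both miR-132 and miR-212 were called, miR-132 as lower and miR-212 as higher. The signals of the label groups did not overlap for 162 miRNAs, 68.6% of those tested, with 38.1% lower and 30.5% higher on the treated arrays, and both miRNAs were among them. Nothing is read from these calls, because the pair was chosen with this contrast known. The lists below were also chosen with results of these arrays known, so their p-values and counts of calls only describe this contrast. The median difference of the 236 miRNAs was -0.084. The shares called depend on the filter as well. When only the 186 miRNAs detected on every array were tested, 55 were called higher and 56 lower. With all 696 miRNAs of the array tested, the counts were 51 and 52. The call of miR-212 was lost with spike-in controls, without scaling, with normexp (a model-based background correction, here with an offset of 50) and with the deposited value table, with or without its column for treated replicate 4. The call of miR-132 was lost with normexp and with the deposited value table.

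Within an array a scaling factor multiplies both signals alike, so the ratio of miR-132 to miR-212 can be followed without choosing a scaling. The log2 ratio was 1.62, 1.47, 1.73 and 1.63 on the non-treated arrays. It was -1.84, -1.85 and -1.88 on the treated arrays. The ratios of the label groups lay far apart and spread little within each, with means of 1.61 ± 0.104 (SD, n = 4) and -1.86 ± 0.0194 (SD, n = 3). Taken as measured, the difference of the log2 ratio was -3.47, with the probes of miR-132 not above background on the treated arrays by the rule on spots. With the brighter probe of each miRNA alone, A_54_P1054 over A_54_P2617, the log2 ratio was 1.49 ± 0.174 (SD, n = 4) on the non-treated arrays. On the treated arrays it was at most -1.35, -1.54 and -0.86, with A_54_P1054 set to the lowest signal of a probe well above background on the same array. The ratio was thus at least 6.67-fold lower on the treated arrays, and every limit lay below every measured ratio. The level of the ratio itself cannot be read as which miRNA was more abundant, since different probes bind differently. Its difference between the labels shows unequal change, and does not tell which of the pair changed per unit of tissue. Whether the probes of either miRNA also bind the other was not tested.

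The values of the single probes show how much of the low signal of miR-132 can be measured. Probe A_54_P1054 gave unscaled signals of 37.6, 34.8, 31.3 and 40.1 on the non-treated arrays, where every spot used was well above background. On the treated arrays it gave 3.66 with 2 of 10 spots well above background, 3.94 with 4 of 10, and 2.37 with 0 of 10. A probe was taken as above background on an array when more than 50% of its spots were, so this probe was above background on all 4 non-treated arrays and on none of the 3 treated arrays. Its mean signals on the treated arrays were still above the 95th percentile of the negative control spots, which was 1.49, 1.65 and 1.22 there. On non-treated replicate 3 only 6 spots of this probe were used, the rest carrying outlier flags.

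Probe A_54_P1055, the other probe of miR-132, gave 15.3, 16.4, 12.9 and 16.0 on the non-treated arrays, again with every spot well above background. It gave 0.849, 1.42 and 1.12 on the treated arrays, with 0 of 10 spots well above background on each. Each of these last signals was below the 95th percentile of the negative control spots of its own array, a value that ran from 1.20 to 1.84 over the arrays. By the rule on spots miR-132 thus had only an upper limit on the treated arrays, although the software called it detected on 2 of them. For each array that limit was the lowest scaled signal among probes well above background, or the probe's own where higher. Against it, A_54_P1054 was at least 3.29-fold higher on the non-treated arrays, and A_54_P1055 at least 1.38-fold higher. Both bounds hold for the scaling used here, and those under other scalings were not computed. With the highest such limit over the arrays as a common floor, the log2 differences were smaller in size, at -1.43 and -0.18. Taken as measured, they were -2.31 and -2.61, against treated signals that were not above background by that rule.

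For miR-212, probe A_54_P2617 carried most of the signal. It gave 13.3, 14.5, 9.73 and 14.0 on the non-treated arrays and 12.2, 14.5 and 8.80 on the treated arrays, with every spot used well above background. These ranges overlapped almost completely, and the means were 12.9 ± 2.17 (SD, n = 4) and 11.9 ± 2.89 (SD, n = 3). Probe A_54_P2616 gave 3.95, 3.90, 3.64 and 4.08 on the non-treated arrays and 3.96, 4.82 and 4.05 on the treated arrays. With 1 to 4 spots well above background on each array, this probe was above background on none of them. After scaling, the log2 differences were 1.02 for A_54_P2617 and 1.29 for A_54_P2616, the latter not above background by that rule on either side. Both scaled differences were above 0, while without scaling the difference was -0.14 for A_54_P2617 and 0.13 for A_54_P2616.

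**Figure D2:**
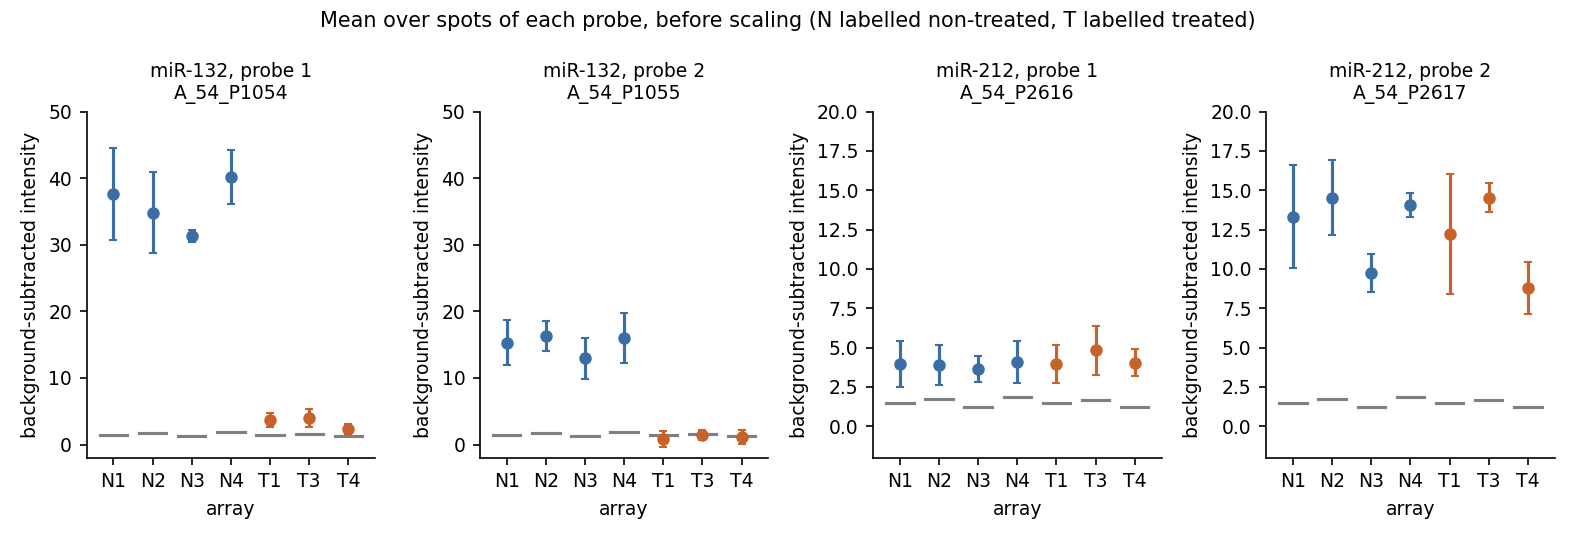
Unscaled intensity of each probe of miR-132 (A_54_P1054 and A_54_P1055) and of miR-212 (A_54_P2616 and A_54_P2617) on each array, as the mean and SD over its spots, with N and T for non-treated and treated replicates and a grey line at the 95th percentile of the negative control spots. The probes of miR-132 are far lower on the 3 treated arrays, with A_54_P1055 below the grey line and A_54_P1054 above it. Those of miR-212 lie in the same range under both labels.

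Because the treated arrays were dimmer, the choice of scaling moved both miRNAs together. The difference of miR-132 was -2.63 with the 75th percentile of always-detected miRNAs, -2.13 with that of all miRNAs, -2.89 with the mean over all miRNAs and -2.08 after quantile normalization. Scaling by spike-in controls gave -3.33 and no scaling -3.44 at the floor of that setting, so miR-132 was lower on the treated arrays under all 7 scalings. For miR-212 the same settings gave 0.84, 1.34, 0.58, 1.32, 0.14 and -0.067. MiR-212 was thus higher on the treated arrays under 6 scalings, by little with spike-in controls, and lower without scaling.

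The median difference of the tested miRNAs moved along with them, from -1.20 without scaling and -1.03 with spike-in controls to 0.11 with the 75th percentile of all miRNAs. Relative to that median, miR-132 was lower by -2.33 to -2.08 and miR-212 higher by 1.13 to 1.32 over the 7 scalings. A scaling factor shifts a miRNA and the median alike, so apart from quantile normalization these values differ only through the floor. MiR-212 lay above the median of these arrays in each scaling, which is thus not separate support, whereas its unscaled signals overlapped between the labels. Which scaling is nearer to amounts per unit of tissue was not tested.

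**Figure D3:**
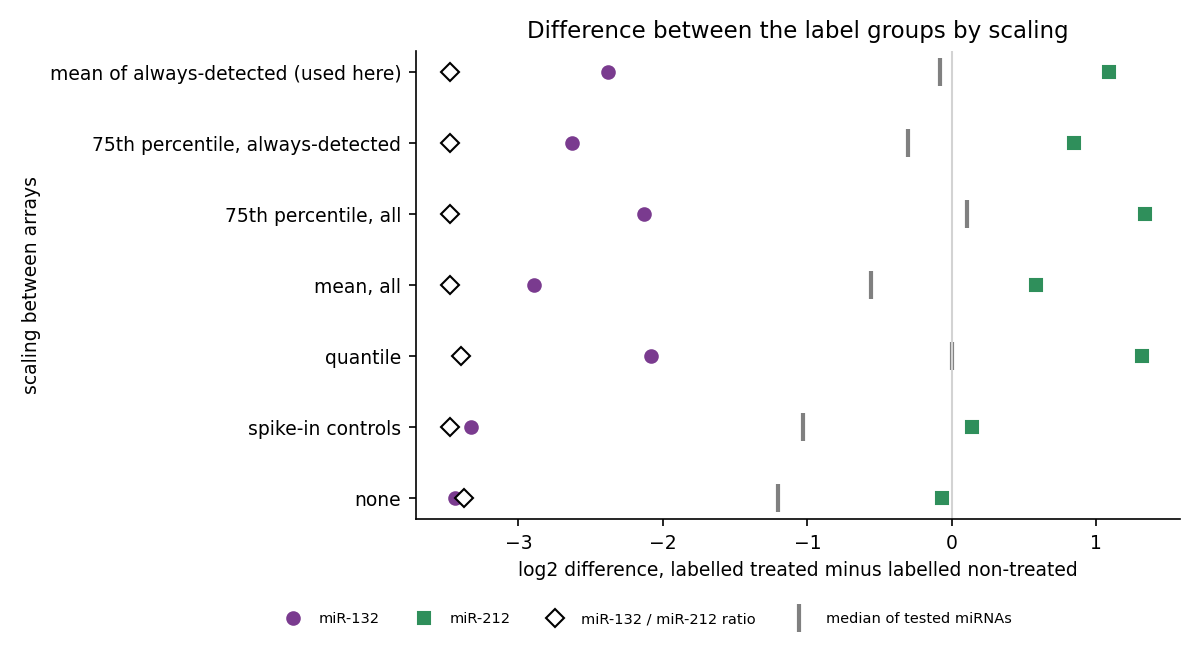
Log2 difference, labelled treated minus labelled non-treated, of miR-132, miR-212, their ratio and the median of the tested miRNAs under 7 scalings between arrays. MiR-132 and miR-212 shift together with the median, miR-212 crossing 0 without scaling, while the ratio stays between -3.47 and -3.37. A scaling factor cancels from the ratio except through the floor.

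All arrays lay on 1 slide and were read in 1 scan, so neither could be used as a batch. The slide had arrays in 2 rows that each held both labels. Within row 1, with 1 treated array and 2 non-treated, the differences were -2.12 for miR-132 and 1.27 for miR-212. Within row 2, with 2 of each, they were -2.60 and 0.94. The directions were those of the whole set in each row, and the change of the log2 ratio was -3.39 and -3.54.

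The REST and CREB network list holds miR-9, miR-9*, miR-124, miR-134, miR-132 and miR-212, brain-enriched miRNAs linked to REST or CREB. Besides the pair, only miR-9* could be tested, since miR-124 and miR-134 were detected on no array and miR-9 on 2 of 4 non-treated arrays and 1 of 3 treated arrays. MiR-9* had a scaled log2 signal of 2.96 ± 0.473 (SD, n = 4) on the non-treated arrays and 3.94 ± 0.105 (SD, n = 3) on the treated arrays. Its difference of 0.98 (standard error 0.25) did not pass the threshold (limma adjusted p = 0.0114), and it was -0.16 without scaling. Of the 3 tested members of the list 1 was called higher, against 23.3% of the miRNAs tested, and 1 lower, against 31.8%, and these were miR-212 and miR-132 themselves. The median difference of the 3 was 0.98, against -0.084 for all 236 miRNAs. That median is the value of miR-9* alone, which lies between those of the pair, so it describes no shift of the list. MiR-9* was at the floor on non-treated replicate 1.

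A second list holds miRNAs known to be induced by endotoxin in myeloid cells, which are miR-132, miR-146a, miR-146b and miR-155. MiR-146a, a brake on signalling from Toll-like receptors, had unscaled signals of 316, 367, 161 and 336 on the non-treated arrays and 30.5, 38.2 and 25.7 on the treated arrays. The groups did not overlap, and the scaled log2 difference was -2.02 (standard error 0.086, limma adjusted p = 2.65e-06). MiR-155, an inducer of inflammatory responses in macrophages and lymphocytes, had 95.9, 101, 41.8 and 97.0 against 8.78, 13.4 and 8.56. Its groups did not overlap either, with a scaled log2 difference of -1.82 (standard error 0.13, limma adjusted p = 2.28e-05).

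MiR-146b had 74.9, 63.3, 33.6 and 68.5 on the non-treated arrays and 1.62, 3.71 and 2.24 on the treated arrays, where it was detected on no array. Since its scaled signals there lay at the floor, the size of its log2 difference of -2.80 (limma adjusted p = 1.55e-06) rests on that floor, and it ran from -3.80 to -2.53 over the 7 scalings. All 4 miRNAs of this list were called lower, against 31.8% of the miRNAs tested, with a median of -2.20, and each was lower under all 7 scalings. Only 2 of them, miR-146a and miR-155, were detected on every array. MiR-132 and miR-146b passed the detection filter through the non-treated arrays alone, where they are high, so their calls were favoured by the filter. MiR-132 is a member of the list by its own known induction, so 3 of the 4 calls are of other miRNAs. These calls test nothing about the list, which was chosen with results of these arrays known.

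Within 1 Mb of the pair on chromosome 11 lie 3 other miRNA hairpins, Mir22, Mir3971 and Mir6926, of which the array measured the strands of Mir22, 290.0 kb away. MiR-22, a widely expressed miRNA with its own host transcript, had a scaled log2 signal of 10.76, 10.65, 10.94 and 10.86 on the non-treated arrays and 11.65, 11.78 and 11.71 on the treated arrays. The groups did not overlap, and the difference was 0.91 (standard error 0.079, limma adjusted p = 5.31e-05), but it was -0.24 without scaling and -0.036 with spike-in controls. Its star strand miR-22* differed by 0.76 (standard error 0.085, limma adjusted p = 1.99e-04), and by -0.40 and -0.19 in those settings. The scaled differences of miR-22 and miR-22* thus had the sign of that of miR-212 and not of miR-132, and 2 of the 2 measured strands were called higher, against 23.3% of the miRNAs tested.

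**Figure D4:**
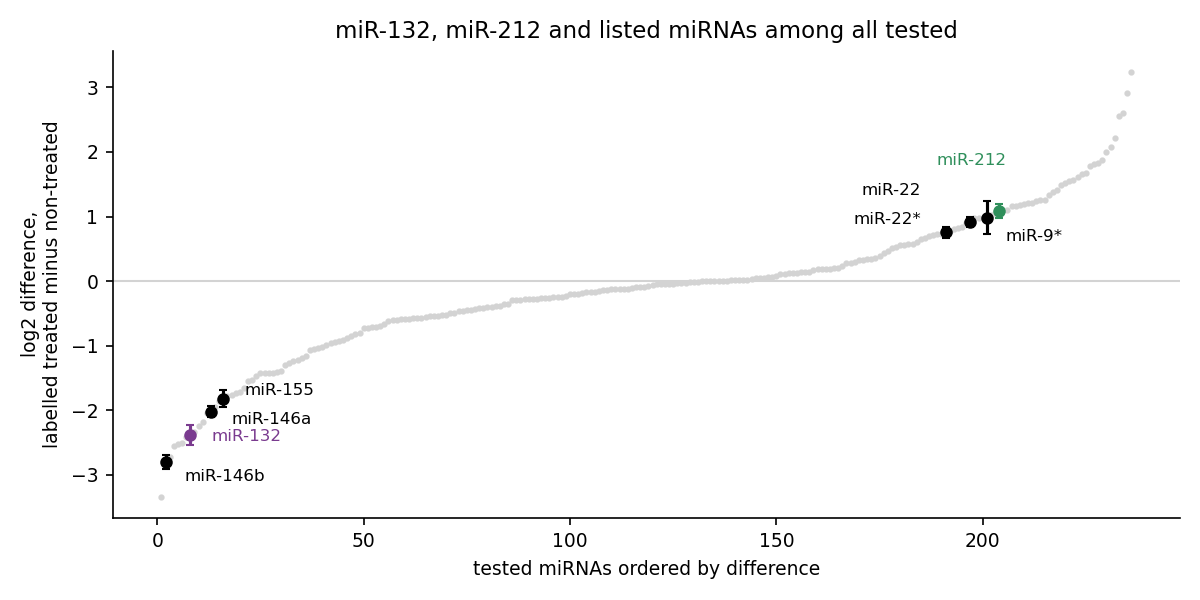
Log2 difference, labelled treated minus labelled non-treated, of all 236 tested miRNAs in order of size, with miR-132, miR-212 and the miRNAs of the lists marked and bars of 1 standard error. MiR-132 stands among the lowest with miR-146a, miR-146b and miR-155, and miR-212 among the higher ones with miR-22, miR-22* and miR-9*, of which miR-212, miR-22, miR-22* and miR-9* fall below 0 without scaling, as do miR-22 and miR-22* with spike-in controls.

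Likeness of pattern was measured as the root mean square difference of scaled log2 signals over the 7 arrays, after subtracting the mean of each miRNA, against 235 other tested miRNAs. Closest to miR-132 were miR-21 at 0.143, miR-214 at 0.153, miR-199a-3p at 0.206, miR-199a-5p at 0.225 and miR-223 at 0.238. Closest to miR-212 were miR-30a* at 0.0886, miR-200b at 0.112, miR-429 at 0.120, miR-712 at 0.123 and miR-22 at 0.129. The distance between miR-132 and miR-212 was 1.72, which put miR-212 at rank 203 from miR-132 and miR-132 at rank 228 from miR-212. All distances from miR-132 take its treated signals as measured, although its probes were not above background there by the rule on spots. Its nearest miRNAs and both of these ranks are therefore not determined. These 7 points share the arrays and the label difference, so the likeness describes these arrays and carries no test.

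The marker miRNAs of several cell types moved with the labels as well. Of the white blood cell list (miR-142-3p, miR-142-5p, miR-150 and miR-223), 4 of 4 were called lower on the treated arrays, against 31.8% of the miRNAs tested, with summed scaled signals of 1066 to 1394 on the non-treated arrays and 264 to 287 on the treated arrays. Of the fibroblast and smooth muscle list (miR-143, miR-145, miR-199a-3p, miR-199a-5p and miR-214), 5 of 5 were called lower, against the same 31.8%, with sums of 2530 to 2867 and 574 to 589. Both lists lay on the side of miR-132, and their members were lower under all 7 scalings. The part of these cell types in the difference of miR-132 was not tested.

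Of the tubule list (miR-192, miR-194, miR-215, miR-204 and miR-30a), 4 were detected on every array and miR-215 on none. Of those 4, 3 were called higher, against 23.3% of the miRNAs tested, and miR-204 lower, against 31.8%, on the treated arrays, with sums of 1619 to 1963 and 5510 to 5633, and miR-30a differed by 0.0029 without scaling. Both miRNAs of red blood cells, miR-144 and miR-451, were called higher, again against 23.3%, with sums of 1079 to 2329 and 4615 to 5118. The sums of the endothelial strands miR-126-3p and miR-126-5p ranged from 1769 to 1955 and from 1780 to 1899, and neither was called. Without scaling these strands differed by -1.16 and -1.08, and with spike-in controls by -0.95 and -0.87. Of the neuronal list (miR-124, miR-9, miR-9*, miR-128 and miR-138), miR-124 and miR-138 were detected on no array, and neither of the 2 miRNAs tested, miR-9* and miR-128, was called, with sums of 23.2 to 33.1 and 37.1 to 40.4. Without scaling miR-128 differed by -0.97 and miR-9* by -0.16, and with spike-in controls by -0.76 and 0.049. The direction of the neuronal sums thus depends on the scaling. For the miRNAs of red blood cells the unscaled differences were 1.45 for miR-144 and 0.50 for miR-451, the latter with overlapping signals. The part of these cell types in the difference of miR-212 was not tested.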

How the data were processed

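The files that the authors deposited come from the scanner software Agilent Feature Extraction 10.7.3.1, and their processed signal is a background-subtracted intensity on a linear scale, not normalized between arrays. Their deposited value table holds, within a relative tolerance of 1e-05, the linear intensity of the first spot of each probe for 6 arrays and its error estimate for treated replicate 4. It serves as an alternative, and precision is limited by the number of arrays. Each array holds 13920 spots for 1937 probes.

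The differences were fitted with limma 3.58.1 in R 4.3.3, and the steps were tested on simulated data. The miRNAs and lists were chosen with earlier results of these data known, so p-values and calls of listed miRNAs are given as description only. Named are the pair, miRNAs with hairpins within 1 Mb, the lists and the 5 miRNAs most like each of the pair, so no p-value is given for the pair itself. Replicate numbers come from the sample titles. The correlations of deviations of same-numbered arrays were -0.013, -0.021 and 0.19, so the numbers were not taken as pairs. Arrays of a group differed by 1.34 to 3.45 times the SD expected from their spots, and each was counted as a sample. Alternatives covered scaling, signal, probes, floor, filter, test, replicate block, slide row and each array left out. The slide row within-row values and all alternatives of the ratio were added after seeing the data.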

Additional observations from a re-analysis of the deposited data

Results flagged for a closer look

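Among 9 sets of values from the arrays labelled non-treated, 2 held an array far from the other 3, where chance alone marks about 5% of such sets. The sets come from the same arrays and most share a scaling factor, so the 2 flags are not independent. The mean log2 signal of the always-detected miRNAs was 6.65 on non-treated replicate 3 and 7.40 to 7.52 on the others, and its spike-in controls averaged 10.20, lower than on the other 3 (10.60 and above). The scaled log2 signal of probe A_54_P1055 of miR-132 was 3.79 on that array and 3.26 to 3.34 on the others, while its unscaled signal was the lowest of the group. Without that array the difference was -2.28 for miR-132 and 1.16 for miR-212.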

How the results depend on the processing

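The change of the ratio of miR-132 to miR-212 was below 0 under all 26 alternatives, the difference of miR-132 below 0 under all 28 and that of miR-212 above 0 under 27 of 28. A scaling factor moves the ratio only through the floor, and the choice of filter or t-test cannot move it. Some settings also repeat others, so these counts are not independent support. Over the scalings miR-132 gave -2.63 and -2.13 (75th percentile of always-detected and of all miRNAs), -2.89 (mean of all), -3.44 (none), -2.08 (quantile) and -3.33 (spike-in controls). In the same order miR-212 gave 0.84, 1.34, 0.58, -0.067, 1.32 and 0.14, and the ratio gave -3.40 after quantile normalization and -3.37 without scaling, a shift beyond the spread between arrays only in the latter. The split of called miRNAs into higher and lower was 55 and 75, but 75 and 47 with the 75th percentile of all miRNAs, 36 and 121 with the mean of all, 62 and 58 after quantile normalization, 19 and 170 with spike-in controls and 7 and 162 without scaling. Agilent's summed signal gave -2.96 for miR-132 and -4.10 for the ratio. normexp, whose offset of 50 is near or above the signals of the pair, gave -0.018, 0.062 and -0.080 for miR-132, miR-212 and the ratio, and 59 calls. The deposited table gave -0.51, 0.19 and -0.70 and 56 calls, and -3.70 for the ratio without treated replicate 4, whose column holds error estimates. Calls of miR-212 were lost with spike-in controls, no scaling, normexp and the deposited table with or without that column, and calls of miR-132 with normexp and the full deposited table. Using 1 probe with the common floor for probes gave -1.43 (A_54_P1054) and -0.18 (A_54_P1055) for miR-132 and 0.92 (A_54_P2617) for miR-212. A_54_P2616 gave no value, all arrays being at that floor. Within row 1 of the slide the values were -2.12, 1.27 and -3.39, and within row 2 -2.60 and 0.94 with a ratio of -3.54. Leaving out each array gave 112 to 146 calls, -2.47 to -2.28 for miR-132, 1.05 to 1.16 for miR-212 and -3.52 to -3.43 for the ratio. The replicate block gave -2.47, 1.05 and -3.52 with 108 calls, and 1 of 3 numbers had its highest correlation with itself. Testing only miRNAs detected on every array left miR-132 out and gave 55 higher and 56 lower calls. The signal over background limits miR-132 on the arrays labelled treated and probe A_54_P2616 of miR-212 on all arrays.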

Other observations

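The medians of the columns of the deposited value table were 0.420, 0.509, 0.447 and 0.321 for non-treated replicates 1 to 4 and 0.311, 0.263 and 1.001 for treated replicates 1, 3 and 4, on a linear scale with no centring. The last is the column that holds error estimates.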
